A study of Mus musculus with 79 samples.

Results

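Glutathione synthesis and the thioredoxin system were described here through 9 genes of the mouse lung, namely Gclc, Gclm, Gss, Gsr, Gpx2, Txnrd1, Txn1, Srxn1 and Prdx1. The genes were set by name. Each was matched by symbol or synonym to the rows of the expression table, and each matched 1 row of the 31350 rows, of which 21837 carried a gene symbol. RNA came from the homogenized right lung of 79 mice, measured on 1 array per mouse, and every level below is a normalized log2 intensity, so that a difference of 1 is a 2-fold difference.

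The mice were male and female littermates aged 5 to 7 weeks on a C57BL/6J background. βENaC mice carried the Scnn1b transgene (Scnn1b-tg), which overexpresses the β subunit of the epithelial sodium channel in the airway epithelium and leaves them with mucus obstruction and chronic lung inflammation, and WT mice did not carry it. Smoke-exposed mice breathed mainstream and side-stream smoke of 6 3R4F reference cigarettes per day with the filters removed, and sham-exposed mice breathed room air in the same kind of chamber. Exposure lasted 1 day or 5 days in a row, and lungs were taken 4 hours after the last exposure. The 1-day exposures comprised 20 sham-exposed and 20 smoke-exposed mice, with 10 mice of each genotype in each. The 5-day exposures comprised 11 WT and 9 βENaC sham-exposed mice, and 9 WT and 10 βENaC smoke-exposed mice. With sex, these made 16 groups of 4 to 6 mice. The 1-day and the 5-day mice were separate sets of mice, so that duration cannot be told apart from anything else that differed between the sets, and durations were compared through their smoke minus sham differences.

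The labels were checked on genes outside the pathway. Scnn1b was at 11.52 or more in every βENaC mouse and at 9.47 or less in every WT mouse, and Xist separated females from males. Cyp1a1, an enzyme induced through the aryl hydrocarbon receptor, separated smoke-exposed from sham-exposed mice at both durations. Genotypes were taken from titles and the genotype field, which another label field contradicted for 13 mice. The mean level of 4 markers of alveolar type 2 cells, the surfactant-making cells of the lung, lay between 11.55 and 11.90 in all groups, and how its single markers moved is given with the comparisons. A clustering in the study set a single array apart, that of WT smoke-exposed female replicate 2 at 5 days. Of the 5 mice in its group it had the highest Gclc (10.56), Gsr (9.13), Txnrd1 (9.32) and Srxn1 (5.77) and the lowest Gpx2 (3.67), Prdx1 (10.20) and Txn1 (9.81), and calls lost without it are named below. RNA came from the whole lung, so fewer cells of a type and less RNA per cell cannot be told apart.

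Glutathione is a tripeptide that carries reducing power in its thiol group. Glutamate-cysteine ligase, made of a catalytic subunit (Gclc) and a modifier subunit (Gclm), joins glutamate and cysteine in the limiting step, glutathione synthetase (Gss) adds glycine, glutathione peroxidases such as Gpx2 spend glutathione on peroxides, and glutathione reductase (Gsr) restores it with NADPH. The thioredoxin system is the parallel route, in which thioredoxin reductase (Txnrd1) reduces thioredoxin (Txn1), thioredoxin reduces peroxiredoxins such as Prdx1, and sulfiredoxin (Srxn1) rescues peroxiredoxins that were oxidized too far. Many of these genes are known targets of NRF2, a transcription factor that is released from KEAP1 by electrophiles and oxidants and binds antioxidant response elements with a small MAF protein.

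The core letters of the antioxidant response element were looked for in the promoter windows, because they are the sequence through which NRF2 is known to act on such genes. The RefSeq promoter table (build GRCm38.p6) held windows of 300 bases, 250 before and 50 after the start, for 7 of the 9 genes, in 9 windows since Txnrd1 had 3, and Gclc and Gsr had no entry. The letters TGACNNNGC and TGAGNNNGC were searched on both strands. Of all 32851 windows in the table, 12.4% held the first, 17.6% the second and 27.8% either one. Of the 9 member windows, 4 held a match, 1 each for Srxn1, Gclm, Prdx1 and Txnrd1, and the windows of Gss, Txn1 and Gpx2 held none. The 5 matches that lie before the start are printed below from 5′ to 3′ on the strand of the gene, the plus strand in each case, with the matched letters in capitals. Where the match is on the opposite strand, the capitals are its reverse complement.
Srxn1, first match: tctactgagaGCCGACTCAtcctctctgg
Srxn1, second match: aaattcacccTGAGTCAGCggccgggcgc
Gclm: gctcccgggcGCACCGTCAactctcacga
Prdx1: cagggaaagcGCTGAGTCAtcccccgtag
Txnrd1: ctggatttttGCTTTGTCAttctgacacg
The Srxn1 stretches lie at chr2:152105356-152105384, with the match on the opposite strand and its first base 158 bases before the start, and at chr2:152105469-152105497, with the match on the strand of the gene 45 bases before the start. The Gclm stretch lies at chr3:122245413-122245441, with the match on the opposite strand 134 bases before the start. The Prdx1 stretch lies at chr4:116685456-116685484, also on the opposite strand, 133 bases before the start. The Txnrd1 stretch lies at chr10:82859104-82859132, on the opposite strand 92 bases before the start of that transcript. The second Srxn1 stretch and the Prdx1 stretch also hold TGAGTCA, the letters of an AP-1 site, which overlap the element. Srxn1 and Prdx1 each had 1 further match after the start, which is not printed. A match is a description of letters and was not tested for binding.

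After 1 day of smoke, both subunits of glutamate-cysteine ligase, glutathione synthetase, thioredoxin reductase and sulfiredoxin rose, each by more than 1.3-fold, and the recycling enzyme Gsr, the peroxidase Gpx2, thioredoxin itself and peroxiredoxin 1 did not pass the test. The exposure effect was the smoke minus sham coefficient of a linear model with genotype, exposure and sex, fitted with limma to all rows, with p-values adjusted over all rows. Of the 9 genes, 5 were higher in smoke-exposed mice at an adjusted p below 0.05, against 5.03% of all rows called in that direction, and the same 5 passed with a fold above 1.3, against 0.488% of all rows. The median coefficient of the 9 genes was 0.42, and that of all rows was 0.01. After 5 days, 6 of the 9 were higher, Gsr being the sixth, against 3.17% of all rows, and 4 of them by more than 1.3-fold, against 0.581%. The median coefficient was then 0.24 over the 9 genes and -0.00 over all rows.

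**Figure D1:**
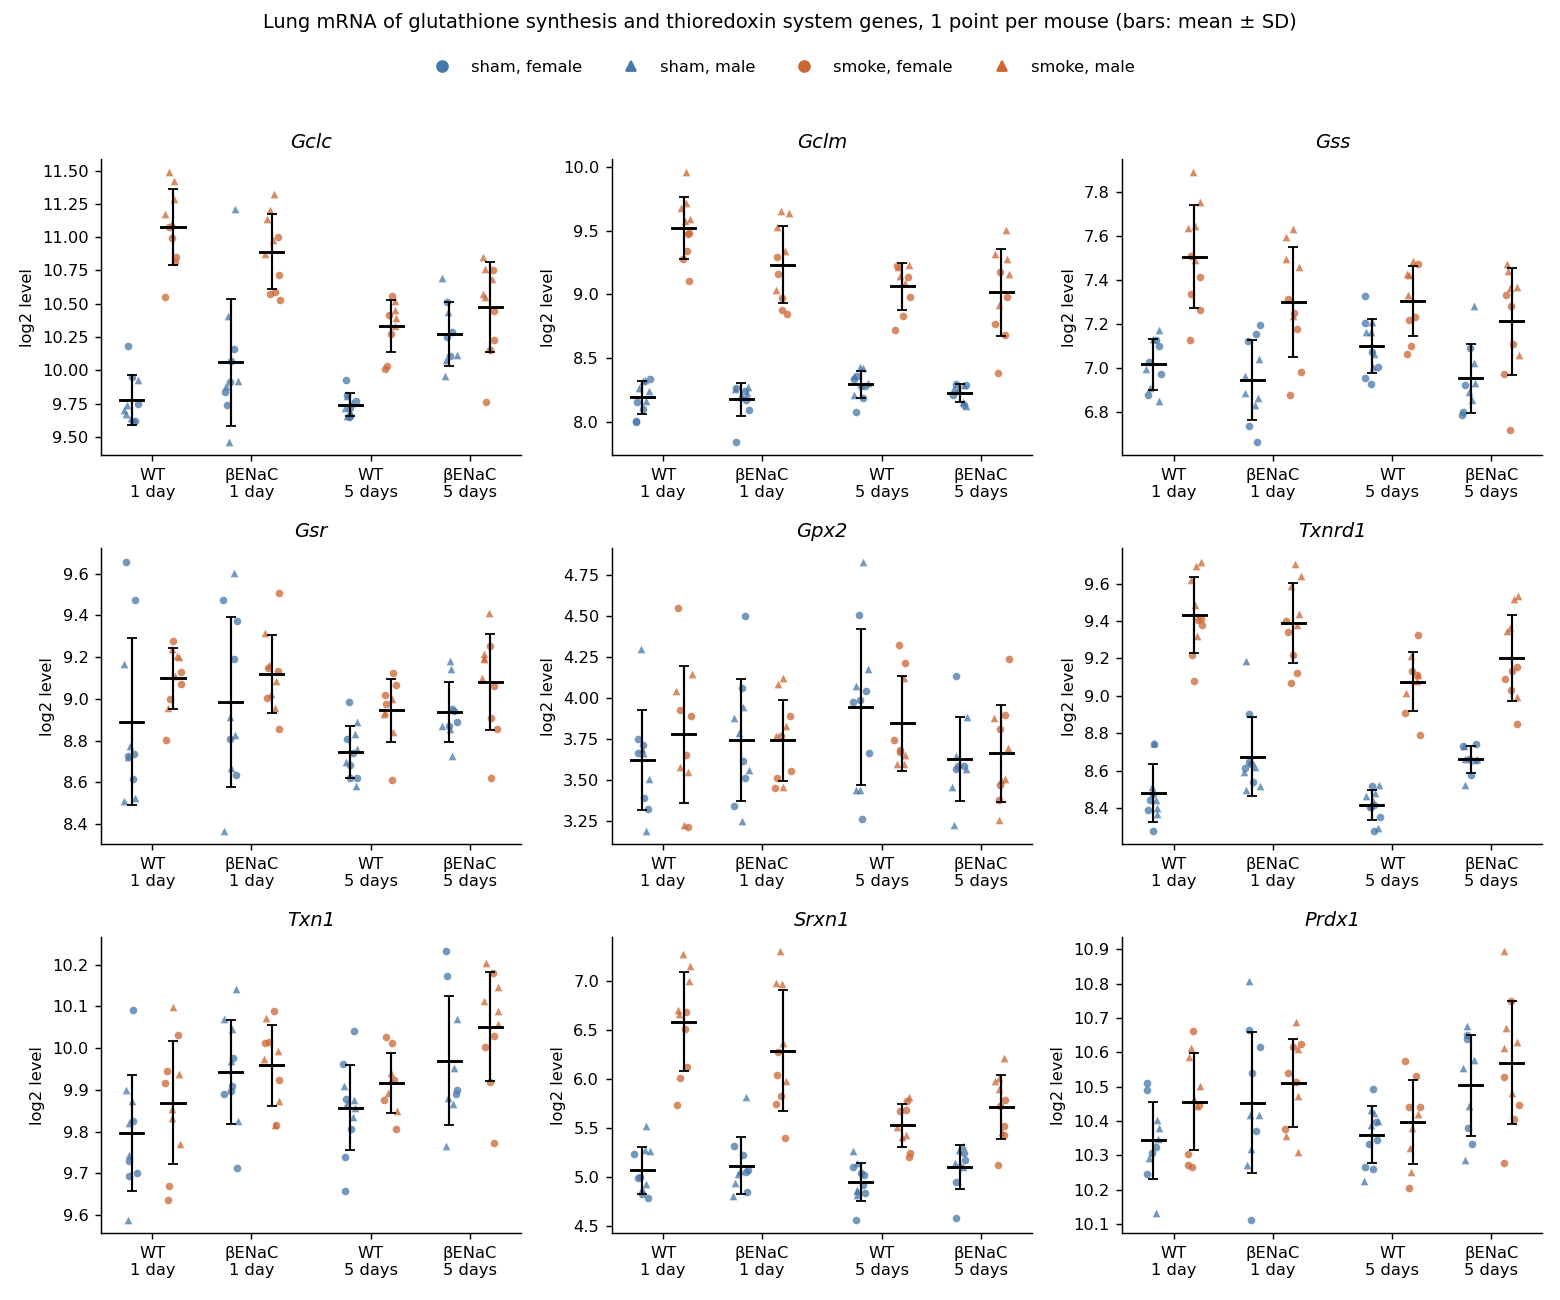
Normalized log2 level of each of the 9 genes in every mouse (y axis, 1 panel per gene with its own scale), by genotype and exposure duration (x axis), sham-exposed mice in blue and smoke-exposed mice in orange, females as circles and males as triangles, with bars for the mean ± SD. Gclm at 1 day and Txnrd1 at 5 days show no overlap between sham-exposed and smoke-exposed mice, and 1 βENaC sham-exposed male at 1 day lies at 11.21 for Gclc among sham-exposed mice that otherwise end at 10.41.

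Gclm, the modifier subunit, was the member with no overlap between exposures at 1 day. In the 20 sham-exposed mice it ranged from 7.84 over a median of 8.22 to 8.33, and in the 20 smoke-exposed mice from 8.84 over 9.41 to 9.96. No smoke-exposed mouse reached down to the sham-exposed mice, a pattern that 0.0287% of all rows showed with smoke-exposed mice on top at 1 day. The coefficient was 1.19 ± 0.06 (SE), or 2.29-fold, with an adjusted p of 1.69e-19 by limma. At 5 days the sham-exposed mice ranged from 8.07 over 8.28 to 8.43 and the smoke-exposed mice from 8.38 over 9.13 to 9.50, and 18 of 19 smoke-exposed mice lay above every sham-exposed mouse. The coefficient at 5 days was 0.79 ± 0.06.

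Gclc, the catalytic subunit, rose as well but with overlap. Its sham-exposed mice at 1 day ranged from 9.47 over 9.86 to 11.21, and its smoke-exposed mice from 10.53 over 10.997 to 11.49. The overlap at 1 day came from 1 sham-exposed mouse, described below, since the next highest sham-exposed mouse was at 10.41. After 5 days, sham-exposed mice ranged from 9.65 over 9.87 to 10.69 and the smoke-exposed mice from 9.76 over 10.44 to 10.85, so that both groups spanned nearly the same interval. The coefficient was 1.06 ± 0.10 (2.09-fold, adjusted p 2.23e-10 by limma) at 1 day and 0.40 ± 0.08 (1.32-fold, adjusted p 0.000353) at 5 days.

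Gss, which completes the tripeptide, moved less. At 1 day its sham-exposed mice ranged from 6.67 over 6.98 to 7.20 and its smoke-exposed mice from 6.88 over 7.44 to 7.89, with 16 of 20 smoke-exposed mice above every sham-exposed mouse. The 5-day ranges were 6.79 over 7.02 to 7.33 and 6.72 over 7.33 to 7.48, with 10 of 19 above. The coefficient was 0.42 ± 0.06 (adjusted p 2.24e-06 by limma) at 1 day and 0.24 ± 0.05 (adjusted p 0.00192) at 5 days.

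Txnrd1, the reductase that feeds electrons to thioredoxin, was the member that separated the exposures at 5 days. Its sham-exposed mice at 1 day ranged from 8.28 over 8.53 to 9.19 and its smoke-exposed mice from 9.07 over 9.40 to 9.72. At 5 days the sham-exposed mice ranged from 8.28 over 8.52 to 8.74 and the smoke-exposed mice from 8.79 over 9.11 to 9.53, a separation of the 2 groups that 0.0255% of all rows showed in that direction at 5 days. The coefficient was 0.83 ± 0.06 (1.78-fold, adjusted p 1.43e-13 by limma) at 1 day and 0.60 ± 0.05 (1.52-fold, adjusted p 3.27e-12) at 5 days.

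Srxn1, the sulfiredoxin, had the largest coefficient of the 9 genes at 1 day and also the widest spread among smoke-exposed mice. At 1 day its sham-exposed mice ranged from 4.78 over 5.04 to 5.81 and its smoke-exposed mice from 5.40 over 6.44 to 7.31, and 17 of 20 smoke-exposed mice lay above every sham-exposed mouse. The 5-day ranges were 4.56 over 5.07 to 5.31 and 5.12 over 5.67 to 6.21, with 16 of 19 above. The coefficient was 1.35 ± 0.12 (2.54-fold, adjusted p 3.17e-11 by limma) at 1 day and 0.60 ± 0.07 (1.52-fold, adjusted p 1.82e-07) at 5 days.

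Gsr, which regenerates glutathione, stood between the genes that rose and those that did not. Its sham-exposed mice at 1 day ranged from 8.37 over 8.79 to 9.66, a wider interval than the 8.80 over 9.12 to 9.51 of the smoke-exposed mice. At 5 days the ranges were 8.58 over 8.84 to 9.18 and 8.61 over 9.02 to 9.41. The coefficient was nearly the same at both durations, 0.17 ± 0.09 (adjusted p 0.289 by limma) at 1 day and 0.17 ± 0.05 (adjusted p 0.0311) at 5 days. The 5-day call was lost when any 1 of 4 mice was left out, namely WT smoke-exposed female replicates 2 and 4, βENaC smoke-exposed male replicate 2 and βENaC sham-exposed male replicate 4, with adjusted p between 0.0509 and 0.0547. It was also lost in 1 fit over all 79 mice, with an adjusted p of 0.19.

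The remaining 3 genes had coefficients near 0. Txn1, thioredoxin itself, had coefficients of 0.04 (95% confidence interval -0.04 to 0.13) at 1 day and 0.07 (-0.01 to 0.15) at 5 days. Prdx1, which reduces hydrogen peroxide at the expense of thioredoxin, had 0.08 (-0.01 to 0.18) and 0.05 (-0.04 to 0.14). These intervals lie between minus and plus 0.379, the log2 of a 1.3-fold change in either direction. Gpx2, a peroxidase of epithelial cells, had 0.08 (-0.13 to 0.29) and -0.04 (-0.25 to 0.18), on a mean level of 3.75 that was above those of 39.5% of rows, and no detection calls were used here to tell signal from background.

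**Figure D2:**
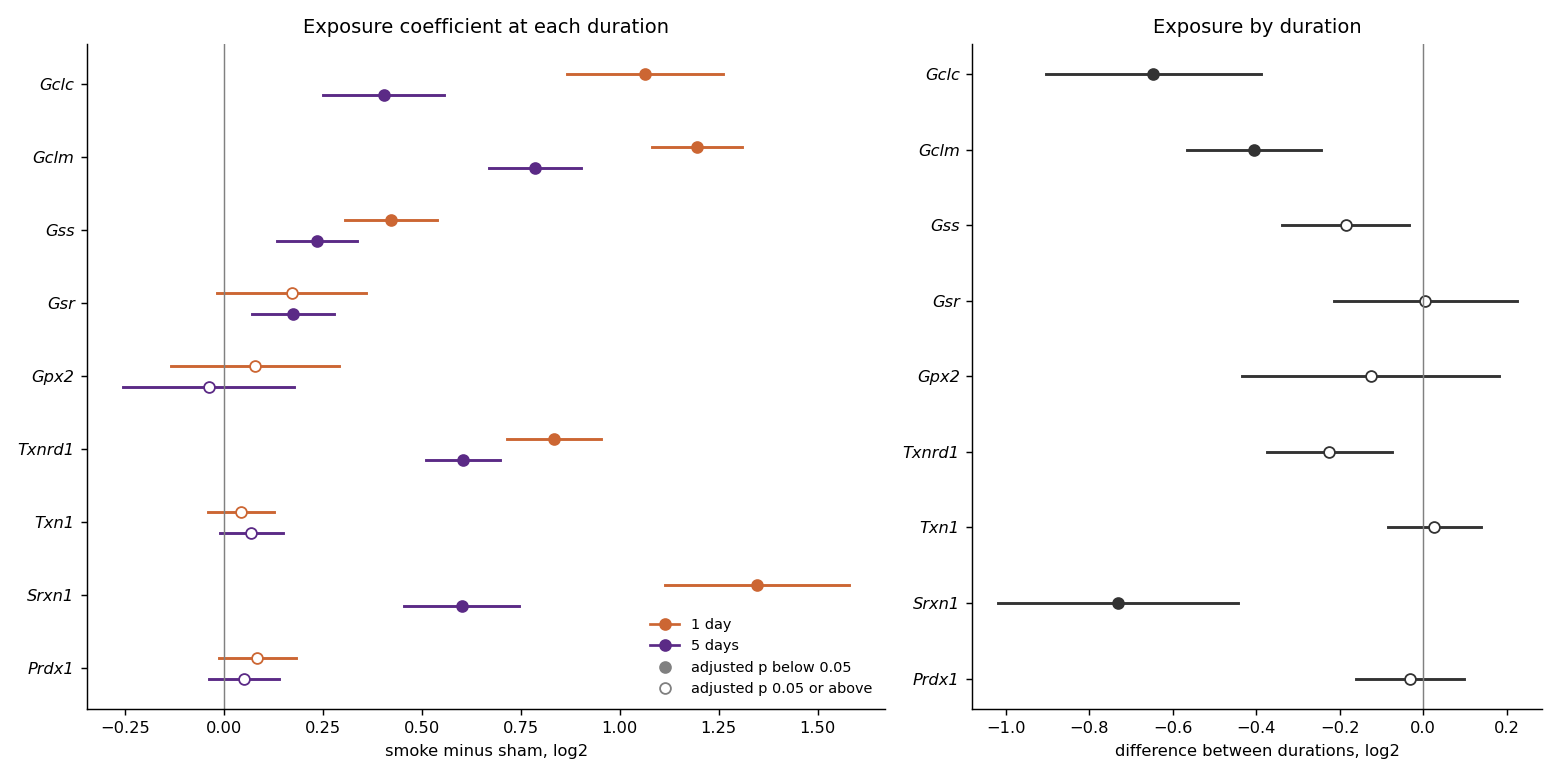
Left, exposure coefficient (smoke minus sham, log2, x axis) of each gene (y axis) at 1 day in orange and at 5 days in purple. Right, difference between the coefficients of the durations (5 days minus 1 day, log2). Bars are 95% confidence intervals, filled points have an adjusted p below 0.05, and the 3 filled points on the right are Gclc, Gclm and Srxn1, all below 0.

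The durations were compared by the interaction of exposure with duration in a fit of all 79 mice. Gclc, Gclm and Srxn1 had a smaller smoke minus sham difference at 5 days, which made 3 of the 9 genes against 0.695% of all rows called in that direction. The term was -0.65 ± 0.13 for Gclc (adjusted p 0.00284 by limma), -0.40 ± 0.08 for Gclm (adjusted p 0.0027) and -0.73 ± 0.14 for Srxn1 (adjusted p 0.00269). Txnrd1 had -0.22 (95% confidence interval -0.37 to -0.07, adjusted p 0.126) and Gss had -0.19 (-0.34 to -0.03, adjusted p 0.253). In these 5 genes the mean of smoke-exposed mice was lower at 5 days than at 1 day, by values from -0.15 for Gss to -0.81 for Srxn1, while the means of sham-exposed mice differed by -0.07 to 0.08. Gsr, Txn1 and Prdx1 had terms of 0.00, 0.03 and -0.03.

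Markers of other cell types also moved with exposure, and their part in these results was not tested. At 1 day, 3 of 4 ciliated cell markers and 3 of 5 monocyte markers were lower in smoke-exposed mice, against 1388 of the 31350 rows called lower. The mean of the monocyte markers ranged from 7.50 to 8.89 in sham-exposed and from 7.35 to 8.15 in smoke-exposed mice. Also at 1 day, 1 of 5 neutrophil markers was lower. At that duration 1 of 3 endothelial cell and 1 of 3 fibroblast markers were higher, against 5.03% of all rows called higher. At 5 days, 4 of 5 monocyte markers were lower, against 1055 of the 31350 rows, and all 3 erythroid cell markers were higher, against 3.17% of all rows. The mean of the erythroid cell markers ranged from 5.55 to 8.30 in sham-exposed and from 6.88 to 9.20 in smoke-exposed mice. Also lower at 5 days were 2 of 3 endothelial cell, 1 of 3 eosinophil and 1 of 3 fibroblast markers. Among 4 goblet cell markers, 1 was higher and 1 lower at 5 days. None of 5 alveolar macrophage markers was called at 1 day and 1 was lower at 5 days. Of 4 alveolar type 2 cell markers, 1 was lower at 1 day and 2 at 5 days. Within the 4 combinations of genotype and sex, Gclm and Txnrd1 separated smoke-exposed from sham-exposed mice in 4 of 4 at both durations, and Srxn1 in 4 at 1 day and 3 at 5 days. Gclc did so in 3 at 1 day and 2 at 5 days, Gss in 2 and 1, and Prdx1 in 1 and 0. Gsr, Gpx2 and Txn1 did so in 0 at both durations. The share of all rows that separate in such small groups was not counted.

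The genotypes were then compared within the exposure response. In WT mice at 1 day the same 5 genes were higher with smoke, against 1.42% of all rows, and in βENaC mice at 1 day again 5, against 2.44%. At 5 days 4 genes were higher in WT mice, Gclc, Gclm, Txnrd1 and Srxn1, against 0.979% of all rows, and 3 in βENaC mice, Gclm, Txnrd1 and Srxn1, against 0.986%. Gss in βENaC mice at 5 days was 0.26 higher with an adjusted p of 0.0537, and this fell below 0.05 in several of the settings described in the closing section. Gclc at 5 days was 0.60 ± 0.09 higher with smoke in WT mice (adjusted p 0.00013 by limma) and 0.20 ± 0.09 in βENaC mice (adjusted p 0.365). The βENaC value averages the sexes, with a difference of group means of -0.02 (SE 0.184) in females and 0.43 (SE 0.146) in males. In WT mice these differences were 0.50 (SE 0.115) and 0.70 (SE 0.0477).

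The difference between genotypes in the response did not pass the test for any of the 9 genes. With limma, 0 of 9 passed for exposure by genotype at 1 day, where 0.00638% of all rows did, and 3 had an unadjusted p below 0.05, as did 3 by the ordinary linear model. These were Gclc with -0.46 (95% confidence interval -0.82 to -0.11), Gclm with -0.27 (-0.47 to -0.07) and Txnrd1 with -0.24 (-0.45 to -0.02), each the response of βENaC minus that of WT mice. All 9 terms were below 0 at 1 day, in genes measured on the same mice, with a median of -0.16 against 0.03 over all rows. The βENaC sham-exposed mice include male replicate 1, described below, which was high for Gclc, Txnrd1, Srxn1 and Prdx1. How many of the 9 terms stayed below 0 without this mouse was not counted. Over the omission of single mice the Gclc term ranged from -0.54 to -0.33. The share of all rows below 0 was not counted. At 5 days 0 of 9 passed, as did 0% of all rows, and 1 had an unadjusted p below 0.05 by either tool, Gclc with -0.41 (-0.67 to -0.14). The terms for Gclm and Srxn1 at 5 days were 0.01 and 0.03.

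**Figure D3:**
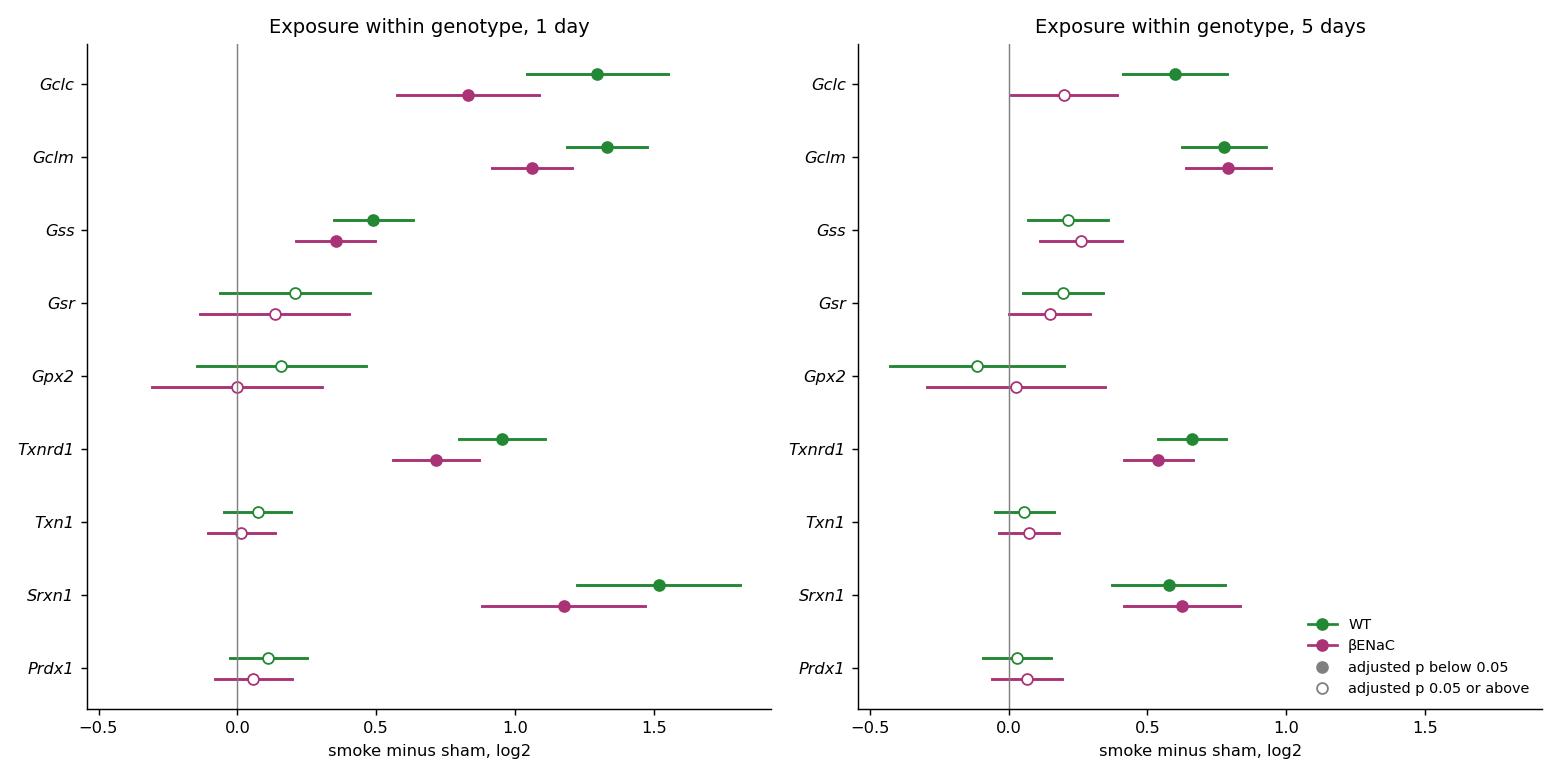
Exposure coefficient (smoke minus sham, log2, x axis) of each gene (y axis) within WT mice in green and within βENaC mice in purple, at 1 day (left) and 5 days (right). Bars are 95% confidence intervals and filled points have an adjusted p below 0.05. Gclc at 5 days is filled for WT at 0.60 and open for βENaC at 0.20.

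Across exposures, no gene of the 9 differed between genotypes at 1 day, and 5 were higher in βENaC mice at 5 days. At 1 day limma called 0 of 9 in either direction, against 5.87% of all rows, with 3 at an unadjusted p below 0.05 and 3 by the ordinary linear model. At 5 days the 5 genes higher in βENaC mice stood against 4.85% of all rows. They were Gclc by 0.33 ± 0.08 (adjusted p 0.00263 by limma), Txnrd1 by 0.18 ± 0.05 (adjusted p 0.00832), Gsr by 0.16 ± 0.05 (adjusted p 0.0429), Prdx1 by 0.16 ± 0.04 (adjusted p 0.0159) and Txn1 by 0.12 ± 0.04 (adjusted p 0.0347). None reached 1.3-fold. Gclm, the partner subunit of Gclc, had -0.07 (adjusted p 0.502), and Gss had -0.13 (adjusted p 0.0917). The Gsr call was lost when any 1 of 22 of the 39 mice was left out, with adjusted p from 0.0523 to 0.0753, and the Txn1 call when any 1 of 8 was left out, with adjusted p from 0.0502 to 0.0725. These 8 were WT smoke-exposed female replicate 2, WT sham-exposed female replicate 6, WT smoke-exposed male replicate 3, βENaC sham-exposed female replicates 1 and 2, βENaC smoke-exposed female replicate 3 and replicate 2 of both the sham-exposed and the smoke-exposed βENaC males.

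The genotype difference in Gclc at 5 days was larger in the sham-exposed mice. Among sham-exposed mice at 5 days, Gclc ranged from 9.65 over 9.72 to 9.93 in 11 WT mice and from 9.96 over 10.25 to 10.69 in 9 βENaC mice, so that the genotypes did not overlap. How many of all rows separated the genotypes in this way was not counted, which also applies to Txnrd1 below. Among smoke-exposed mice it ranged from 10.01 over 10.40 to 10.56 in 9 WT mice and from 9.76 over 10.56 to 10.85 in 10 βENaC mice, and the WT range lay inside the βENaC range. Estimated apart, a contrast chosen after these values were seen, the difference was 0.53 ± 0.09 in sham-exposed mice (adjusted p 0.000249 by limma) and 0.13 ± 0.09 in smoke-exposed mice (adjusted p 0.608). The difference between these 2 values is the exposure by genotype term for Gclc at 5 days given above, which did not pass after adjustment.

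Txnrd1 showed the same order in sham-exposed mice at 5 days. It ranged from 8.28 over 8.42 to 8.52 in WT and from 8.52 over 8.66 to 8.74 in βENaC mice, with the lowest βENaC mouse at 8.523 and the highest WT mouse at 8.521. The difference was 0.24 ± 0.06 (adjusted p 0.0116 by limma), and in smoke-exposed mice it was 0.12 ± 0.06 (adjusted p 0.414). In all, 2 of the 9 genes were higher in βENaC mice among sham-exposed mice at 5 days, against 2.77% of all rows, and 0 among smoke-exposed mice, against 0.842%, with Prdx1 and Txn1 at an unadjusted p of 0.00651 and 0.0153. At 1 day none of the 9 was called among sham-exposed mice, and Gclm was lower in βENaC mice among smoke-exposed mice by -0.29 ± 0.07 (adjusted p 0.0201), against 0.74% of all rows called lower.

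Cell type markers also differed between genotypes at 5 days, and their part in these differences was not tested. All 4 goblet cell markers and 3 of 5 alveolar macrophage markers were higher in βENaC mice, as were 2 of 4 alveolar type 2 cell markers, while both club cell markers and all 3 alveolar type 1 cell markers were lower. Over all rows, 4.85% were called higher in βENaC mice at 5 days, and 1670 of the 31350 rows were called lower. The mean of the goblet cell markers ranged from 4.78 to 7.34 in WT and from 6.58 to 8.69 in βENaC mice. The mean of the alveolar macrophage markers ranged from 7.65 to 8.25 in WT and from 7.85 to 9.29 in βENaC mice. The mean of the club cell markers ranged from 12.80 to 13.04 in WT and from 12.31 to 12.76 in βENaC mice, with no overlap. Within groups, over 79 mice, Gclc correlated with the eosinophil markers at a Pearson r of 0.557 (Spearman rho 0.347, 0.518 without the 2 mice farthest out), with the club cell markers at -0.544 (rho -0.237, -0.32 without 2 mice) and with the alveolar macrophage markers at 0.492 (rho 0.28, 0.335 without 2 mice). Over sham-exposed mice these were 0.716, -0.71 and 0.741, and over smoke-exposed mice 0.331, -0.279 and 0.16, all descriptions from the same arrays. The sham-exposed values include βENaC sham-exposed male replicate 1 at 1 day, described below, and were not recomputed without it. The eosinophil markers were low, with medians of 3.42 to 3.79 by exposure and duration, while array medians were 4.44 or more. None of the 3 eosinophil markers was called between genotypes at 5 days.

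Sex was a further term of the model. At 1 day Gclm was 0.26 ± 0.06 higher in males (adjusted p 0.00165 by limma) and Srxn1 0.46 ± 0.12 higher (adjusted p 0.00601), 2 of the 9 genes against 7.82% of all rows called higher in males. At 5 days limma called 0 of 9 for sex, against 0.616% of all rows in either direction, with 4 at an unadjusted p below 0.05 and 4 by the ordinary linear model. In sham-exposed mice at 1 day Srxn1 had a median of 5.02 in females and 5.04 in males, and in smoke-exposed mice the medians were 6.03 and 6.97. For Gclm these medians were 8.13 and 8.25 with sham exposure, and 9.22 and 9.62 with smoke.

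The exposure by sex term at 1 day was called in 0 of 9 genes by limma, against 0.00638% of all rows, and 4 had an unadjusted p below 0.05, as did 4 by the ordinary linear model. These were Gss with 0.39 (95% confidence interval 0.19 to 0.59), Srxn1 with 0.69 (0.28 to 1.09), Gclm with 0.26 (0.07 to 0.46) and Txnrd1 with 0.27 (0.06 to 0.48), each the response of males minus that of females. At 5 days 0 of 9 passed, as did 0% of all rows, and 2 had an unadjusted p below 0.05 by either tool, Gclc with 0.33 and Gclm with 0.28. Markers of alveolar type 1 cells (2 of 3) and fibroblasts (2 of 3) were also higher in males at 1 day, against 7.82% of all rows, and their part was not tested.

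One sham-exposed mouse stood apart in part of the system. In βENaC sham-exposed male replicate 1 at 1 day, Gclc was at 11.21 and Txnrd1 at 9.19, both within the range of smoke-exposed mice, while the other 19 sham-exposed mice of that duration ended at 10.41 and 8.90. Its Srxn1 was at 5.81 and its Prdx1 at 10.81, against 5.52 and 10.66 at most in the others. Its Gclm was at 8.22, and Nqo1 (5.70) and Cyp1a1 (6.04) were likewise at sham levels, far from the lowest smoke-exposed mice at 8.11 for Nqo1 and 10.72 for Cyp1a1. Its Slc7a11 was at 8.69, above the other sham-exposed mice (7.41 at most) and within the range of smoke-exposed mice (from 7.88). Thus the mouse was high for some members and not for others. Its alveolar macrophage markers averaged 9.20, above the 8.81 of the next mouse at 1 day, its eosinophil markers averaged 5.25 against 5.01 at most elsewhere, and its neutrophil markers averaged 9.08 against 6.85 to 7.47 in the rest of its group and 9.43 at most in other mice at 1 day. Its club cell (12.33), alveolar type 1 cell (9.38) and endothelial cell (10.34) markers were the lowest at 1 day. Their part in its levels was not tested. Without this mouse the exposure effect at 1 day was still called in 5 of the 9 genes.

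Within the groups, the 5 genes called for smoke at both durations also varied together from mouse to mouse, to differing degrees. After the 16 group means were subtracted, the 10 pairs among Gclc, Gclm, Gss, Txnrd1 and Srxn1 all correlated above 0 over the 79 mice, with Pearson r from 0.222 to 0.764 and a median of 0.548, and the median over all 36 pairs was 0.251. The 20 pairs of one of these 5 with another member had a median of 0.172, and 17 were above 0. Gsr, called only at 5 days, had 0.625 with Txnrd1 and 0.598 with Gclc, above the 0.227 of Gclc with Gss. Gclc with Gss was at -0.0132 at 5 days, and Gclm with Txnrd1 at 0.729 in smoke-exposed and 0.212 in sham-exposed mice. These are descriptions, since the paired values come from the same arrays, RNA preparations and normalization. Txnrd1 and Srxn1 had the highest r, 0.764 (Spearman rho 0.779), which was 0.781 at 1 day and 0.735 at 5 days and 0.724 without the 2 mice farthest out. Gclc followed Txnrd1 (r 0.736, rho 0.71, 0.672 without 2 mice) and Srxn1 (r 0.679, rho 0.735, 0.683 without 2 mice).

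The subunits of the ligase varied together less than either did with Txnrd1 or Srxn1. Gclc and Gclm had an r of 0.222 (rho 0.369, 0.281 without 2 mice), with 0.322 at 1 day and 0.092 at 5 days. Gclm instead followed Gss (r 0.623, rho 0.582, 0.558 without 2 mice), with 0.614 at 1 day and 0.631 at 5 days. Among the genes that did not rise, Txn1 and Prdx1 had an r of 0.665 (rho 0.69, 0.655 without 2 mice). The correlations of Gpx2 with the other members lay between -0.103 and 0.0915.

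**Figure D4:**
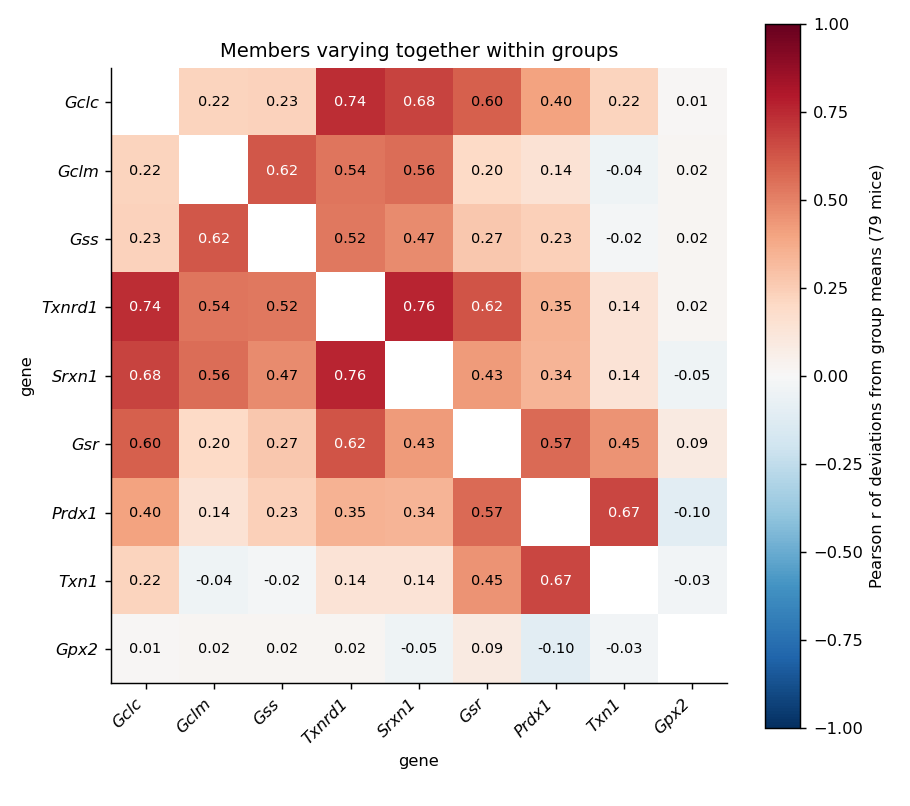
Pearson r between each pair of genes (x and y axis) over the deviations of 79 mice from their 16 group means, red for positive and blue for negative values. Txnrd1 with Srxn1 (0.76) and Gclc with Txnrd1 (0.74) are the highest, Gclc with Gclm is at 0.22, and the row of Gpx2 is near 0 throughout.

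The genes outside the 9 that varied with each subunit also differed. Gclc followed Slc7a11, the cystine transporter subunit, with an r of 0.881 (rho 0.797, 0.842 without 2 mice), alike in smoke-exposed mice (0.879) and sham-exposed mice (0.886). Slc7a11 was not particular to Gclc, since it also had 0.684 with Gsr, 0.66 with Srxn1, 0.659 with Txnrd1 and 0.533 with Prdx1. Gclm had 0.24 with Slc7a11 (rho 0.369, 0.254 without 2 mice) and 0.762 with Nqo1, a quinone reductase (rho 0.633, 0.708 without 2 mice), and Gss had 0.668 with Nqo1 (rho 0.603, 0.653 without 2 mice). With the mean of the alveolar type 1 cell markers Gclm had 0.571 (rho 0.54), and with that of the ciliated cell markers 0.559 (rho 0.532). The part of these cells in the Gclm levels was not tested. Gsr had 0.794 with the mean of the neutrophil markers (rho 0.731, 0.741 without 2 mice) and 0.737 with that of the monocyte markers (rho 0.69, 0.785 without 2 mice). The neutrophil markers ranged from 6.72 to 9.43 in sham-exposed and from 6.52 to 8.43 in smoke-exposed mice at 1 day, and their part in the Gsr levels was not tested.

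Over the 16 group means, the standardized levels of the 9 genes were averaged into 1 profile. Txnrd1 followed the profile most closely (r 0.973), then Gclc (0.944), Gclm (0.924) and Srxn1 (0.916), while Gss (0.814), Gsr (0.767), Prdx1 (0.654) and Txn1 (0.485) followed it less and Gpx2 not at all (0.00242). Each of the 9 genes is itself part of the profile, so these values are partly built in. Of all other rows with a symbol, the 5 most like it were Abcc1 (r 0.966), Gsto1 (0.938), Gm19950 (0.938), Slc7a11 (0.937) and Nexmif (0.936). Abcc1 encodes a pump that exports glutathione conjugates, and Gsto1 a glutathione transferase. These likenesses rest on 16 group means and carry no test.

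The rest of the pathway was read from lists of 58 genes, of which 50 had a row. With smoke at 1 day 11 of the 50 were higher and 2 lower, against 5.03% of all rows called higher and 1388 of the 31350 rows called lower. At 5 days 14 were higher and none lower, against 3.17% of all rows called higher and 1055 of the 31350 rows called lower. Their median coefficient was 0.02 at 1 day and 0.05 at 5 days, against 0.01 and -0.00 over all rows.

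Of the 5 genes listed under cysteine supply, 3 were higher at 1 day, against 5.03% of all rows, and all 5 at 5 days, against 3.17%. Slc7a11, which imports cystine, rose by 3.65 ± 0.27 (adjusted p 3.1e-13 by limma) at 1 day and by 1.69 ± 0.22 (adjusted p 1.22e-06) at 5 days, and the exposure by duration term was -1.92 (adjusted p 0.00194). Its response at 1 day also differed between genotypes, with 4.80 in WT and 2.50 in βENaC mice and an exposure by genotype term of -2.30 (adjusted p 0.0186). The βENaC sham-exposed mice include male replicate 1, with Slc7a11 at 8.69 against 4.92 to 7.41 in the rest of its group. The term was not recomputed without this mouse. Slc3a2, the partner chain of Slc7a11, rose by 0.17 at both durations. Cth and Cbs are the enzymes that make cysteine from homocysteine. Cth rose by 0.32 and 0.25, and Cbs rose by 0.39 at 5 days and had 0.08 at 1 day, and neither passed the test of exposure by duration. The fifth on the list, Mpst, rose by 0.15 at 5 days and is named because of the count. It neither imports cystine nor makes cysteine.

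Slc7a11 also shared the sham-exposed genotype difference of Gclc. Among sham-exposed mice at 5 days it ranged from 4.11 over 4.38 to 4.96 in WT and from 5.42 over 6.58 to 7.57 in βENaC mice, with no overlap. The share of all rows with such a separation was not counted. The difference was 2.21 ± 0.27 (adjusted p 9.43e-07 by limma) at 5 days and 1.73 ± 0.28 (adjusted p 0.000236) at 1 day, and in smoke-exposed mice at 5 days it was 0.92 ± 0.28 (adjusted p 0.0878). At 1 day the smoke-exposed mice had -0.57 ± 0.28 (adjusted p 0.34). The 1-day difference in sham-exposed mice includes βENaC male replicate 1 and was not recomputed without it.

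**Figure D5:**
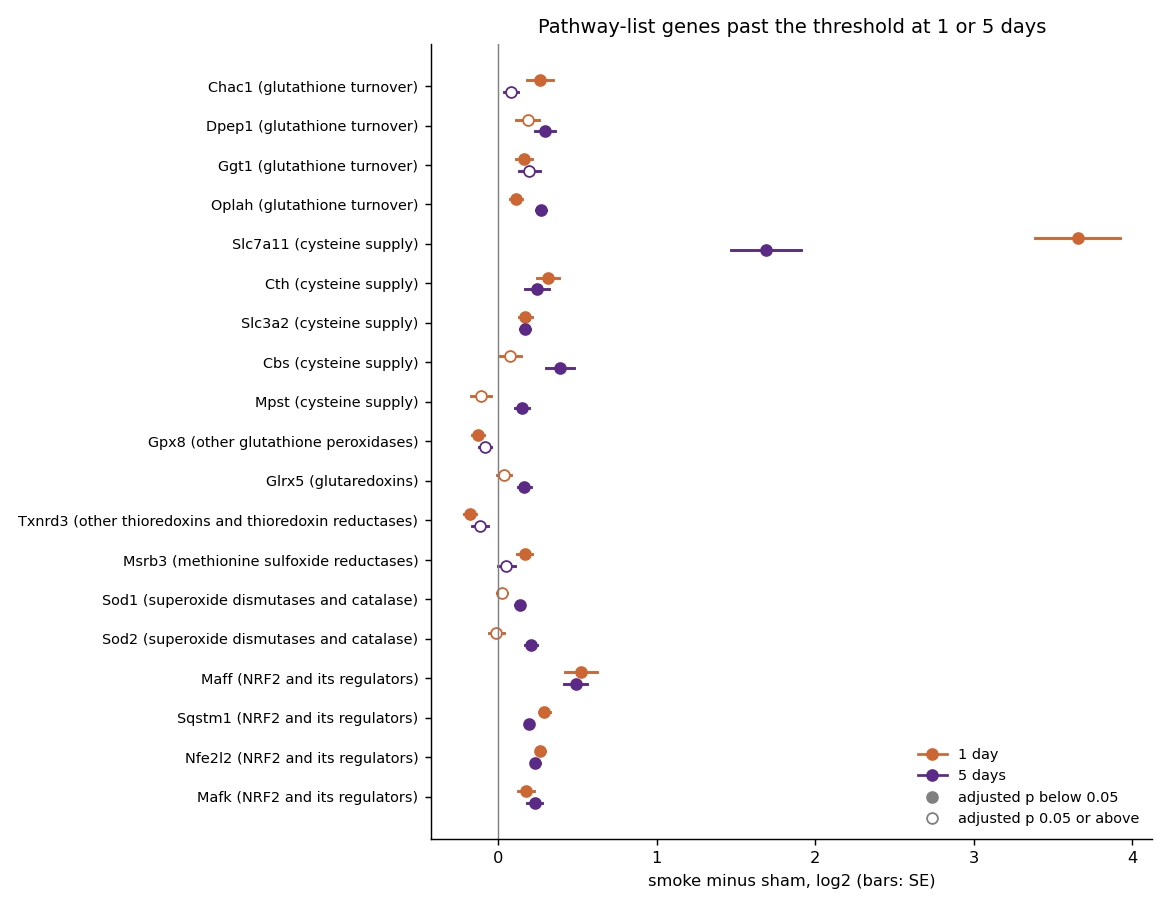
Exposure coefficient (smoke minus sham, log2, x axis, bars for the SE) at 1 day in orange and 5 days in purple of the genes of the wider pathway lists that passed the test at either duration (y axis, list in parentheses). Filled points have an adjusted p below 0.05. Slc7a11 at 3.65 and 1.69 lies far to the right of the others, which lie between -0.18 and 0.52.

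NRF2 and its regulators gave 4 genes of 9 higher at each duration, against 5.03% of all rows at 1 day and 3.17% at 5 days, the same shares that apply to the lists below. Nfe2l2, which encodes NRF2, rose by 0.27 ± 0.03 at 1 day and 0.23 ± 0.03 at 5 days, and Sqstm1, which draws KEAP1 into autophagy, by 0.29 and 0.19. The small MAF partners Maff and Mafk rose by 0.52 and 0.18 at 1 day and by 0.49 and 0.23 at 5 days. Glutathione turnover gave 3 of 10 genes at 1 day, with Chac1, a glutathione-degrading enzyme, at 0.26, Ggt1, a glutamyl transferase, at 0.16 and the oxoprolinase Oplah at 0.11, and 2 of 10 at 5 days, the dipeptidase Dpep1 at 0.29 and Oplah at 0.27.

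Other reductases and peroxidases moved little. Of 7 further glutathione peroxidases, Gpx8 fell by 0.13 at 1 day and none passed at 5 days. Of 6 further thioredoxins and thioredoxin reductases, Txnrd3 fell by 0.18 at 1 day and none passed at 5 days, while Txnrd1 rose at both durations. Of 5 further peroxiredoxins listed, Prdx2, Prdx5 and Prdx6 had no matched row, and neither of the 2 with a row passed at either duration. Msrb3, a methionine sulfoxide reductase, rose by 0.17 at 1 day, and at 5 days the glutaredoxin Glrx5 rose by 0.16 and 2 of 4 genes of superoxide dismutases and catalase rose, Sod2, the mitochondrial dismutase, by 0.21 and Sod1, the cytosolic one, by 0.14, the latter named because of the count. Sod2 had an exposure by duration term of 0.22 (adjusted p 0.0395 by limma).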

How the data were processed

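Lung RNA of 79 mice was hybridized to Affymetrix moGene arrays, 1 per mouse, on 1 plate. The authors deposited log2 intensities made in Partek 6.6 by RMA (background and quantile steps, then median polish for each gene) with an adjustment for probe sequence and GC content, after quality control in Affymetrix Expression Console 1.4 and removal of an array they took as mislabelled. The study's code also sets the genotype of 1 mouse by its Scnn1b level. Arrays carry no counts, detection calls were not used here, and the number of mice limits the precision. Quantile normalization makes every level relative to the other genes of its array.

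Groups came from titles and characteristics, and 13 mice carry the other genotype in their source field. Symbols came from the study's tables, or from RefSeq by transcript identifier. The members and lists were chosen with earlier results of these data known. Named genes were all members, pathway-list genes called for exposure (at most 12 per duration by size), the 5 rows most like the members, and Scnn1b, Xist and Cyp1a1 as checks. Nqo1 was named outside this rule.

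All 31350 rows were fitted by limma 3.58.1 (lmFit, then eBayes) under R 4.3.3. The 1-day (40 mice) and 5-day (39 mice) sets were fitted separately with genotype, exposure and sex, interactions were added terms, responses within a genotype were contrasts of 8 group means, and p-values were adjusted by Benjamini-Hochberg over all rows. A call is an adjusted p below 0.05. The procedure was tested on simulated data. P-values weigh each coefficient against the spread between mice, and littermates were not identified.

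Alternatives were the ordinary linear model of the methods, 1 fit over all mice, other scalings, a filter of the 30% lowest rows, a single entry per symbol, array weights, another prior, the replicate number as a block, fold thresholds of 1.3 and 1.5, and the omission of single mice. The genotype contrasts within each exposure were added after the data were seen.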

Additional observations from a re-analysis of the deposited data

Results flagged for a closer look

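In the 144 combinations of gene and group, 8 held a mouse whose gap to its nearest neighbour was large for the range of its group (Dixon's test at the 95% level), where chance gives about 1 in 20, or 7.2. In βENaC sham-exposed male replicate 1 at 1 day this held for 3 genes, with Txnrd1 at 9.19 (others 8.50 to 8.62), Srxn1 at 5.81 (4.80 to 5.06) and Prdx1 at 10.81 (10.27 to 10.42). Gss was at 7.06 in βENaC smoke-exposed male replicate 5 at 5 days (others 7.37 to 7.47). Gsr was at 8.61 in WT smoke-exposed female replicate 1 at 5 days (8.98 to 9.13). Gpx2 was at 4.12 in WT smoke-exposed male replicate 4 at 5 days (3.60 to 3.66) and at 4.13 in βENaC sham-exposed female replicate 1 at 5 days (3.57 to 3.59). Prdx1 was at 10.23 in WT sham-exposed male replicate 4 at 5 days (10.39 to 10.43).

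The smoke minus sham difference differed between durations, by the exposure by duration term, for Gclc (-0.65), Gclm (-0.40) and Srxn1 (-0.73).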

How the results depend on the processing

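Depth does not apply to arrays, and low signal limits Gpx2 most. Of the 163 recomputed counts of called genes outside the single-mouse omissions, 154 stayed within 1.5 times of the reported count. The 5-day exposure count went from 6 to 3 with a 1.5-fold threshold. The 5-day genotype count went from 5 to 0 with a 1.3-fold and with a 1.5-fold threshold, and, in contrasts added after the data were seen, to 2 in sham-exposed mice only and 0 in smoke-exposed mice only, where the 1-day count went from 0 to 1. The 1-day sex count went from 2 to 4 in 1 fit over all 79 mice, to 1 with a 1.3-fold and to 0 with a 1.5-fold threshold. The thresholds lower counts by construction, and the cause of the other moves was not tested.

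Leaving out each mouse in turn gave 5 to 5 genes for exposure at 1 day, 5 to 6 for exposure at 5 days and 3 to 3 for exposure by duration. It gave 3 to 5 for genotype at 5 days, with 3 without βENaC sham-exposed female replicates 1 or 2, βENaC smoke-exposed female replicate 3, βENaC sham-exposed or smoke-exposed male replicate 2, or WT smoke-exposed male replicate 3. It gave 0 to 1 for genotype at 1 day, with 1 without βENaC sham-exposed female replicate 1, WT sham-exposed female replicate 2 or WT smoke-exposed male replicate 4, and 2 to 4 for sex at 1 day, with 4 without βENaC sham-exposed female replicate 2.

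Signs turned in values that passed no test. Gsr for exposure by duration went to -0.037 with array weights and ranged from -0.037 to 0.037 over the omissions, Gpx2 for exposure at 5 days from -0.075 to 0.011, Gclc for genotype at 1 day from -0.015 to 0.082, and exposure by genotype at 5 days from -0.030 to 0.069 for Gclm and from -0.031 to 0.095 for Srxn1. In the added contrasts of genotype at 1 day, Srxn1 went to 0.047 in sham-exposed mice, and Gclc to -0.18 and Txnrd1 to -0.043 in smoke-exposed mice. Txnrd1 for exposure by duration passed with array weights (-0.26, adjusted p 0.0311), and Gss in βENaC mice at 5 days passed with array median centring (0.0457), 1 entry per symbol (0.0389), array weights (0.0133), a trended robust prior (0.049) and without the 30% lowest rows (0.0406), and without any 1 of 7 mice.

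The replicate numbers of the titles did not pair the mice. Deviations of same-numbered mice from their group means had a median r of 0.017 over 140 pairs at 1 day and -0.0088 over 126 pairs at 5 days. With the replicate block, Txn1 for genotype at 5 days had 0.11 (adjusted p 0.0603) and that count went from 5 to 4, and no other call of the 9 genes changed.

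Scaling moved the median of all rows by less than 0.1 in each comparison, but moved the share of higher calls over all rows. For sex at 1 day it was 79.1%, and 67% with array median centring, 52% with quantile and 55.3% with cyclic loess normalization. In the same order it was 71.7%, 60.6%, 52.9% and 49.4% for βENaC mice at 1 day. For WT mice at 1 day it was 39.9%, and 56.8% and 53.5% with the first pair. Sex at 5 days went from 76.7% to 87.5% with array median centring, and with cyclic loess genotype at 5 days went from 47.7% to 59.4% and exposure by duration from 46.4% to 57.3%. Exposure by genotype at 1 day went from 50% of 2 rows to 33.3% with each scaling.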
